A study of Mus musculus with 8 samples.

Results

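The hormone-sensing luminal genes described here are 9 genes, Esr1, Pgr, Prlr, Foxa1, Gata3, Greb1, Tbx3, Cited1 and Stat5a, taken by symbol from a table of 53697 genes measured in 8 libraries of mouse mammary tumor cells. All 9 passed the filter on low counts and were among the 18322 genes tested. In the mammary epithelium, hormone-sensing (mature luminal) cells are the minority of luminal cells that carry the receptors for estrogen, progesterone and prolactin, and they pass the hormonal signal on to neighboring cells through secreted factors such as amphiregulin, Wnt4 and Rankl. The other luminal cells, the luminal progenitor or alveolar lineage, largely lack the steroid receptors, share the prolactin receptor and make milk proteins. Foxa1 and Gata3 are the transcription factors that open chromatin for the estrogen receptor, and loss of this program accompanies progression of the MMTV-PyMT tumor, which starts as a luminal tumor.

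The cells came from tumors of MMTV-PyMT mice on a C57BL/6 background, in which the mouse mammary tumor virus promoter drives the polyoma middle T oncogene in mammary epithelium. Mice 1 and 2 carried the PyMT-Dll1GFP reporter, a knock-in of GFP at the locus of the Notch ligand gene Dll1, and mice 3 and 4 the PyMT-Dll1mCh reporter, an mCherry transgene built on a BAC. Blood, endothelial and red blood cells were sorted away with antibodies to CD45, CD31 and TER119, a gate that does not remove fibroblasts, and each mouse then gave 1 library of reporter-positive (Dll1+) and 1 of reporter-negative (Dll1-) cells. Every control library therefore also comes from a PyMT tumor with a reporter, and each mouse carried 1 reporter, so reporter line, mouse and any batch cannot be told apart.

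Libraries held 27301396 to 123907626 estimated counts, and the members' counts ran from 20 for Greb1 to 15992 for Gata3 in a single library. Levels are in CPM, that is, per 1000000 counts of the TMM-normalized library. Dll1 itself, the gene sorted on, was higher in the Dll1+ library of each of the 4 mice, at 87.5, 138, 203 and 250.2 CPM against 7.61, 13.7, 34.7 and 50.3 CPM (log2 fold change 2.90, SE 0.24, adjusted p = 0.00651). The Dll1- libraries of the PyMT-Dll1mCh mice stood apart from the rest in stromal markers. The 9 fibroblast markers summed to 7763 CPM in mouse 3 and 21993 CPM in mouse 4, against 3073 to 3312 CPM in their Dll1+ libraries and 1097 to 1242 and 1005 to 1153 CPM in the Dll1- and Dll1+ libraries of the PyMT-Dll1GFP mice. Calls for the 9 genes and for the other lists are therefore also given for the PyMT-Dll1GFP mice alone. Epcam, an epithelial surface marker named after its values were seen, was abundant in all 8 libraries. It was higher in the Dll1+ library of each mouse, as were 21.4% of all tested genes. Epcam was at 919, 982, 963 and 899 CPM in the Dll1- libraries of mice 1 to 4 and at 1100, 1098, 1210 and 1240 CPM in their Dll1+ libraries. Of the 12 luminal epithelial markers, to which it belongs, 7 had a combined log2 fold change above 0 and 5 below. The part of epithelial content in the changes of the 9 genes was not tested.

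**Figure D1:**
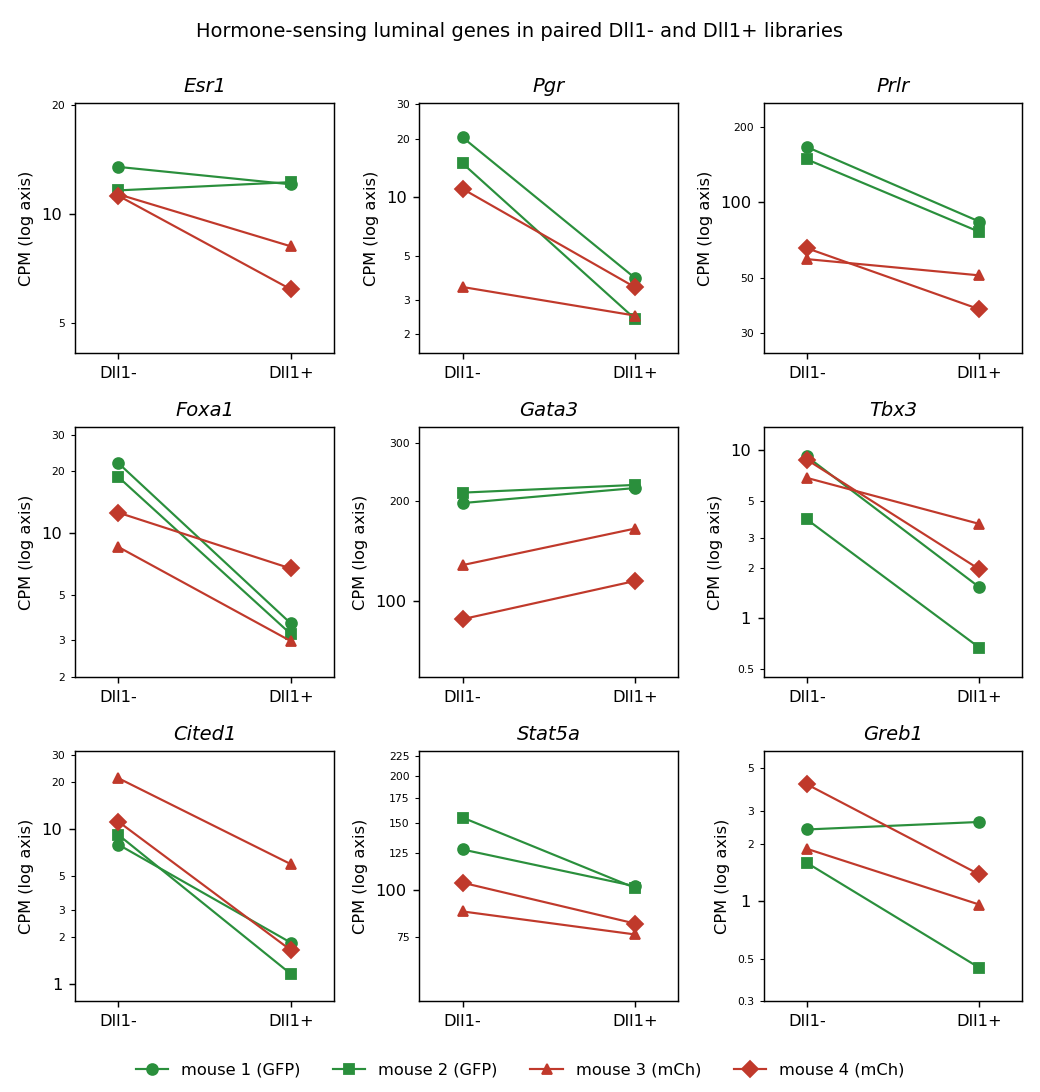
Level of each of the 9 hormone-sensing luminal genes in CPM on a log axis; each line joins the Dll1- and Dll1+ library of 1 mouse, green for PyMT-Dll1GFP and red for PyMT-Dll1mCh. Pgr, Prlr, Foxa1, Tbx3, Cited1 and Stat5a ran down in all 4 mice, as did 19.9% of all tested genes, Gata3 ran up in all 4, as did 21.4%, and Esr1 and Greb1 ran down in 3 of 4.

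The first comparison asked how these genes differ between Dll1+ and Dll1- tumor cells of the same mouse. Across the 4 mice, 6 of the 9 genes were lower in Dll1+ cells, from Cited1 at 5.26-fold lower to Stat5a at 1.30-fold lower. Of all tested genes, 7.04% were called lower, 6.98% higher and 14% in either direction. No member was called higher by edgeR, and DESeq2 called Gata3 higher (adjusted p = 0.0109) beside the same 6 lower genes. Pgr, Prlr, Foxa1, Tbx3, Cited1 and Stat5a fell, while Esr1, Greb1 and Gata3 did not pass the test. The median log2 fold change of the 9 genes was -1.04, and that of all tested genes was -0.000684. Foxa1, Tbx3 and Cited1 were lower in every Dll1+ library than in any Dll1- library, which 3.33% of all tested genes also were. The count fell when a mouse was left out and differed by which mouse it was. Without mouse 1 or without mouse 2 a single gene, Cited1, was still called, without mouse 3 Pgr, Prlr, Tbx3 and Cited1 were, and without mouse 4 Foxa1, Tbx3 and Cited1 were. In bulk libraries of this kind, fewer cells of a type and less RNA per cell cannot be told apart.

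The 250 bases upstream of the annotated start are shown for 4 of the 6 genes that fell, a choice made from that call and not from a shared pattern across libraries. For Prlr and Cited1 the window shown was chosen because it is the 1 of 3 that holds a match, and the other 2 windows of each hold none. Stat5a, with 2 windows and no match, is not shown, nor is Tbx3. Sequences are from RefSeq (GRCm38.p6), which gave 15 promoter windows of 300 bases for 8 of the 9 genes. Both strands were searched for GGTCA followed after any 3 bases by TGACC (the estrogen response element), TTCNNNGAA (bound by STAT factors), GATAA (GATA factors) and TGTTTAC (forkhead factors), and matches, which did not overlap each other, are in capitals. Each sequence reads 5′ to 3′ on the strand of its gene and ends 1 base before the start.
Foxa1 (chr12:57546112-57546361, minus strand): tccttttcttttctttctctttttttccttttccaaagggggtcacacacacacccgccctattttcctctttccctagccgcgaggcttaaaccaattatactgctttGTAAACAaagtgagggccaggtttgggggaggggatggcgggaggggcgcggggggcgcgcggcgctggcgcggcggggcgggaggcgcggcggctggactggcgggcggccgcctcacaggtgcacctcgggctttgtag
Prlr (chr15:10223656-10223905, plus strand, the second of 3 starts): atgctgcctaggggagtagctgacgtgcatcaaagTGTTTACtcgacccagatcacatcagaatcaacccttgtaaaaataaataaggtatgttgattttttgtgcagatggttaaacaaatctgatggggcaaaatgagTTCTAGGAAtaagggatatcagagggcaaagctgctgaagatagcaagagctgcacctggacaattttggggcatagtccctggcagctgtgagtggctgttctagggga
Cited1 (chrX:102250777-102251026, minus strand, the third of 3 starts): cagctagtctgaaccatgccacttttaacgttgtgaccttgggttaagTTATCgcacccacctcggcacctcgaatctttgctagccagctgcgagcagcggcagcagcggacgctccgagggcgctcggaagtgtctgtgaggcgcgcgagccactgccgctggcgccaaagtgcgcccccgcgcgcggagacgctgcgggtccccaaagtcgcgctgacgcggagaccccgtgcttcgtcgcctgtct
Pgr (chr9:8899583-8899832, plus strand): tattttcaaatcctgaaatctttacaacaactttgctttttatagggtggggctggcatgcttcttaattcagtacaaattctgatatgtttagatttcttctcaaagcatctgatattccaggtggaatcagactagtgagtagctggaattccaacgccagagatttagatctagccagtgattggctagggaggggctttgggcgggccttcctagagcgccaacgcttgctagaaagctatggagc
The Foxa1 window held the forkhead letters as their reverse complement, GTAAACA, at -141 to -135 from the start, and the Prlr window held TGTTTAC at -215 to -209 and TTCTAGGAA at -110 to -102. In the Cited1 window the GATA letters appeared as TTATC at -202 to -198, and the Pgr window held none of the 4 motifs. Among all 32851 RefSeq promoter windows of the same length, 3.65% held the forkhead letters, 8.30% the STAT letters, 25.4% the GATA letters and 0.0700% the estrogen response element. None of the 15 windows of these genes held the full estrogen response element, which says only that those letters are not in these windows. The 2 windows of Esr1 held 1 GATA match and 1 STAT match, and those of Gata3, Greb1 and Stat5a held none.

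Coordinates of the genes are those of the GRCm38 annotation (GENCODE M21). Among the receptors, Pgr and Prlr fell and Esr1 did not pass the combined test. Pgr (ENSMUSG00000031870.16, chr9:8899833-8968611, plus strand), the progesterone receptor and a classical estrogen target, was at 20.3, 14.9, 3.48 and 11.1 CPM in the Dll1- libraries of mice 1 to 4 and at 3.87, 2.39, 2.49 and 3.47 CPM in their Dll1+ libraries. The Dll1+ libraries lay close together, while the Dll1- library of mouse 3 was far below the other 3 Dll1- libraries and inside the range of the Dll1+ libraries. Pgr fell by 3.48-fold across the 4 mice (log2 fold change -1.80, SE 0.39, adjusted p = 0.0408), and the drop within a mouse ranged from 1.40-fold in mouse 3 to 6.24-fold in mouse 2.

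Prlr (ENSMUSG00000005268.20, chr15:10177238-10349180, plus strand), the prolactin receptor, was at 166, 148, 59.2 and 65.5 CPM in the Dll1- libraries and 83.7, 76.1, 51.0 and 37.3 CPM in the Dll1+ libraries. Each mouse had the lower value in its Dll1+ library, but the groups overlapped because both Dll1+ libraries of the PyMT-Dll1GFP mice were above both Dll1- libraries of the PyMT-Dll1mCh mice. The combined change was smaller than that of Pgr, at 1.68-fold lower (log2 fold change -0.75, SE 0.14, adjusted p = 0.0289).

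Esr1 (ENSMUSG00000019768.16, chr10:4611593-5005614, plus strand), the estrogen receptor alpha gene, was at 13.5, 11.6, 11.3 and 11.2 CPM in Dll1- cells and 12.1, 12.2, 8.15 and 6.21 CPM in Dll1+ cells. The Dll1- libraries differed little, and only the Dll1+ libraries of mice 3 and 4 lay below them. The combined log2 difference was -0.35 with a 95% interval of -0.75 to 0.05 (adjusted p = 0.197), an interval that spans no change and a modest fall.

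The transcription factors of the luminal program did not move together. Foxa1 (ENSMUSG00000035451.7, chr12:57540628-57546916, minus strand), a forkhead pioneer factor for the estrogen receptor, was at 21.9, 18.7, 8.54 and 12.6 CPM in Dll1- libraries and 3.63, 3.22, 2.98 and 6.71 CPM in Dll1+ libraries, with no overlap between the groups. Its level was 3.67-fold lower in Dll1+ cells (edgeR log2 fold change -1.88, SE 0.33, adjusted p = 0.0244). Within mice, Foxa1 dropped 6.03-fold and 5.81-fold in mice 1 and 2 and 2.87-fold and 1.87-fold in mice 3 and 4.

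Tbx3 (ENSMUSG00000018604.18, chr5:119670669-119684724, plus strand), a T-box repressor needed for mammary bud formation and marking hormone-sensing luminal cells, was at 9.18, 3.88, 6.85 and 8.79 CPM in Dll1- libraries and 1.53, 0.671, 3.65 and 1.96 CPM in Dll1+ libraries. Here too the groups did not overlap, although the Dll1- library of mouse 2 and the Dll1+ library of mouse 3 were close to each other. The fall was 4.03-fold (log2 fold change -2.01, SE 0.32, adjusted p = 0.0179).

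Gata3 (ENSMUSG00000015619.10, chr2:9857078-9890034, minus strand), the zinc-finger factor that maintains luminal identity in both luminal lineages, went the other way. Its Dll1- libraries were at 197, 212, 128 and 87.8 CPM and its Dll1+ libraries at 219, 224, 165 and 115 CPM. Each Dll1+ library was above the Dll1- library of its mouse, and the 2 reporters differed more than the paired libraries did. The combined log2 difference of 0.25 (95% interval 0.06 to 0.43) did not pass after adjustment over all genes (adjusted p = 0.0791).

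Of the coactivator and signaling genes, Cited1 changed most. Cited1 (ENSMUSG00000051159.16, chrX:102247381-102252181, minus strand), a transcriptional coactivator that binds the estrogen receptor and is made in hormone-sensing cells, was at 7.91, 9.15, 21.2 and 11.1 CPM in Dll1- libraries and 1.85, 1.16, 5.92 and 1.66 CPM in Dll1+ libraries. Both libraries of mouse 3 were the highest of their group, yet the groups did not overlap. Cited1 was 5.26-fold lower in Dll1+ cells (edgeR log2 fold change -2.40, SE 0.22, adjusted p = 0.00633), and it was the member that stayed called under all 9 alternatives run for this comparison.

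Stat5a (ENSMUSG00000004043.14, chr11:100859351-100885169, plus strand), the transcription factor that the prolactin receptor activates through Jak2, was at 128, 155, 87.8 and 105 CPM in Dll1- libraries and 102, 101, 76.4 and 81.6 CPM in Dll1+ libraries. The change was small and in the same direction in 4 of 4 mice (log2 fold change -0.37, SE 0.08, adjusted p = 0.0321). Its neighbor and near copy Stat5b, at 99.5, 124, 69.6 and 83.1 CPM in Dll1- and 110.3, 123, 69.1 and 71.5 CPM in Dll1+ libraries, gave a log2 difference of -0.02 (95% interval -0.19 to 0.15, adjusted p = 0.861). Of the 31-base stretches in annotated Stat5a transcripts, 11.5% also occur in Stat5b, so the assignment of some reads between these genes is uncertain.

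Greb1 (ENSMUSG00000036523.16, chr12:16670615-16800886, minus strand), an estrogen-induced cofactor of the estrogen receptor, was the least abundant member, at 2.39, 1.59, 1.89 and 4.13 CPM in Dll1- libraries and 2.62, 0.447, 0.961 and 1.39 CPM in Dll1+ libraries. Mouse 1 showed no drop while the other 3 mice did, and the groups overlapped. The log2 difference of -1.04 had a wide 95% interval of -1.90 to -0.18 (adjusted p = 0.105). An antisense gene, Gm48140, overlaps Greb1 and shares 6.50% of its 31-base stretches, so reads of the pair may not be fully separated. The same may hold for Gata3 and Gm13256 (2.45% shared), Tbx3 and Tbx3os1 (1.30%) and Prlr and Gm21973 (1.12%), which also overlap.

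**Figure D2:**
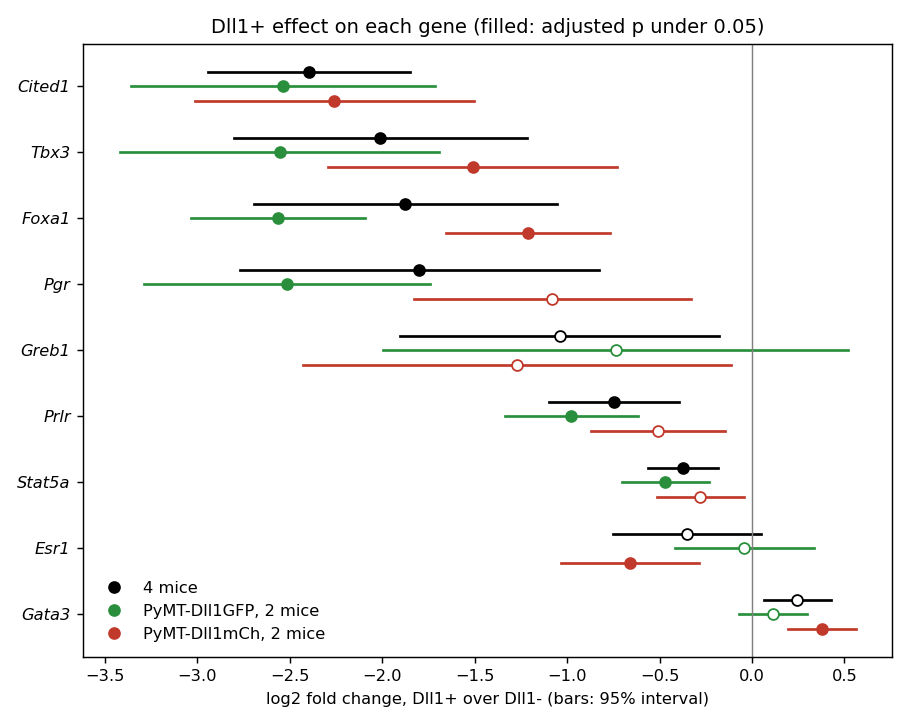
Log2 fold change of Dll1+ over Dll1- cells for each gene with its 95% interval, across all 4 mice (black) and within the PyMT-Dll1GFP (green) and PyMT-Dll1mCh (red) mice; filled points had an adjusted p under 0.05. Cited1, Tbx3 and Foxa1 are filled in all 3 comparisons, and the green points of Pgr, Foxa1, Tbx3 and Prlr lie left of the red ones, a difference that edgeR called for none of the 9 genes and DESeq2 for Foxa1.

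The second comparison took each reporter on its own, to see whether the genes that fell did so with both. In PyMT-Dll1GFP mice the same 6 genes as in the combined test were called lower (4.84% of all tested genes were called lower, 4.29% higher and 9.13% in either direction), with falls of 1.38-fold to 5.91-fold. Foxa1 fell 5.91-fold (log2 fold change -2.56, SE 0.19, adjusted p = 0.00286), Tbx3 5.88-fold, Cited1 5.81-fold and Pgr 5.71-fold, with adjusted p of 0.0128, 0.0128 and 0.0112 for the last 3. Prlr was 1.97-fold and Stat5a 1.38-fold lower (adjusted p = 0.0185 and 0.0351). Esr1 gave a log2 difference of -0.04 in these mice (95% interval -0.42 to 0.33). With these 4 libraries fitted alone, all 6 genes were again called lower. Without mouse 1 or without mouse 2 no member was called in PyMT-Dll1GFP cells by edgeR, where a single mouse then remained and 7 and 6 members had an unadjusted p under 0.05. Without the mouse as a term, 2 members were called, Prlr and Foxa1.

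In PyMT-Dll1mCh mice 4 members were lower and 1 was higher (6.25% and 5.51% of all tested genes). Cited1 fell 4.79-fold, Tbx3 2.85-fold, Foxa1 2.31-fold and Esr1 1.58-fold (adjusted p = 0.0156, 0.0370, 0.0161 and 0.0438). Gata3 rose 1.30-fold (adjusted p = 0.0314). Pgr, Prlr, Stat5a and Greb1 gave log2 differences of -1.08, -0.51, -0.28 and -1.27 without passing (adjusted p = 0.0762, 0.0823, 0.113 and 0.137), and the drops of Pgr, Prlr and Stat5a were smaller in mouse 3 than in mouse 4. These calls rested on a spread shared with the PyMT-Dll1GFP mice: fitted alone, the 4 PyMT-Dll1mCh libraries gave no called gene among all those tested by edgeR, although 8 members had an unadjusted p under 0.05. Without the mouse as a term no member was called either (5 at an unadjusted p under 0.05), while DESeq2 with the mouse as a term called 7. Without mouse 1, mouse 2 or mouse 4, 2 members were called, Foxa1 and Cited1, and without mouse 3 there were 5, with Pgr and Prlr in place of Esr1 and Gata3. The stromal markers fell with the sort in these mice, 5 of 9 fibroblast and 8 of 9 tested immune markers being lower in Dll1+ cells, and their part in the PyMT-Dll1mCh values was not tested.

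The difference between the reporters' effects was tested directly. None of the 9 members was called (0.071% of all tested genes were), while 4 had an unadjusted p under 0.05 and DESeq2 called 1, Foxa1. Foxa1 had a difference of -1.35 on the log2 scale (SE 0.26, unadjusted p = 0.00178 in edgeR, adjusted p = 0.125), a larger fall with the GFP reporter, and without mouse 3 its adjusted p was 0.0179. Pgr differed by -1.43, Esr1 by 0.62 and Gata3 by -0.26, with adjusted p of 0.268, 0.309 and 0.375 in edgeR. For Cited1 the difference was -0.28 with a 95% interval of -1.37 to 0.81, wide enough to hold a change of either sign.

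The third comparison set the reporters side by side within 1 sorted population. Among Dll1- cells, Prlr, Gata3 and Stat5a were lower in PyMT-Dll1mCh than in PyMT-Dll1GFP mice, 3 of 9 members where 17.9% of all tested genes were lower and 36.6% were called in either direction. Prlr was at 62.4 ± 4.44 against 157 ± 12.7 CPM (SD, n = 2 mice each), a 2.52-fold difference with an adjusted p of 0.00229 in edgeR. Gata3 differed 1.90-fold and Stat5a 1.47-fold (adjusted p = 0.0197 and 0.0167). With the mouse as a random block in limma, 5 members were called, the same 3 with Pgr and Foxa1 (adjusted p = 0.0193 and 0.0243). Without mouse 1 or mouse 2 edgeR called no gene of any kind (3 and 2 members had an unadjusted p under 0.05), and without mouse 4 the count was 6, of which Cited1 was higher in PyMT-Dll1mCh cells. The Dll1- cells of the 2 lines also differed in fibroblast markers, as given above, in immune markers (245 to 254 against 42.0 to 55.6 summed CPM) and in Dll1 itself, which was 3.98-fold higher in PyMT-Dll1mCh cells (adjusted p = 0.00724).

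Among Dll1+ cells, Esr1 and Prlr were lower in PyMT-Dll1mCh mice (2 of 9, 15.4% of all tested genes lower and 30.6% called). Esr1 was 1.69-fold and Prlr 1.81-fold lower (adjusted p = 0.0211 and 0.0112). In edgeR Prlr was the member called in both sorted populations, while DESeq2 called Prlr, Gata3 and Stat5a lower in both, and for Gata3 and Stat5a the edgeR adjusted p in Dll1+ cells was 0.0626 and 0.0721. Neither Esr1 nor Prlr was called in Dll1+ cells without mouse 1 or without mouse 2, and 4 members were called without mouse 3 (Esr1, Prlr and Gata3 lower and Foxa1 higher) or without mouse 4 (the same 3 lower and Cited1 higher).

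Compared between genes, levels per kilobase of the longest annotated transcript spanned a wide range. In Dll1- cells the mean over 4 mice was 48.7 ± 18.2 CPM per kb (SD) for Gata3 and 30.0 ± 7.40 for Stat5a, followed by Cited1 at 11.3 ± 5.54, Prlr at 11.1 ± 5.59 and Foxa1 at 4.83 ± 1.88. Esr1, Pgr and Tbx3 came next at 1.88 ± 0.166, 1.81 ± 1.03 and 1.44 ± 0.486 CPM per kb, and Greb1 was last at 0.310 ± 0.141. Of the neighbors in this order, the libraries of Stat5a and Cited1, of Foxa1 and Esr1, and of Tbx3 and Greb1 did not overlap, and the ranges of the other neighbors overlapped. Within a library, however, Gata3 was above Stat5a and Prlr above Foxa1 in all 4 mice. With the length of all exons in place of the longest transcript, Prlr passed Cited1, and Pgr and Tbx3 passed Esr1. In Dll1+ cells Gata3 (56.2 ± 16.0) and Stat5a (22.8 ± 3.38) still led in CPM per kb, Prlr stood at 6.27 ± 2.18 and Cited1 at 2.43 ± 2.02, and Foxa1 at 1.30 ± 0.545 was no longer separate from Esr1 at 1.52 ± 0.470.

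The secreted and nuclear outputs of estrogen and progesterone signaling were described from a list of 15 genes, of which 12 were tested. In the combined edgeR test 4 were lower and 1 was higher in Dll1+ cells (8 had an unadjusted p under 0.05, and DESeq2 called 4 lower and 3, Ctsd, Nrip1 and Rara, higher), with a list median of -0.05 on the log2 scale. By reporter, edgeR called 3 lower and 1 higher in PyMT-Dll1GFP mice and 4 lower and 1 higher in PyMT-Dll1mCh mice. Wnt4, the progesterone-induced ligand that acts on neighboring basal cells, was at 9.45, 6.65, 18.0 and 11.3 CPM in Dll1- libraries and 1.60, 1.16, 6.96 and 3.02 CPM in Dll1+ libraries (log2 fold change -2.05, SE 0.23, adjusted p = 0.00798). Each mouse lost most of its Wnt4 signal, and the groups overlapped only through the Dll1+ library of mouse 3. Areg, the gene of the EGF receptor ligand amphiregulin and the main estrogen-induced factor of the ductal epithelium, was at 17.0, 11.2, 28.9 and 24.7 CPM in Dll1- and 1.85, 2.08, 9.69 and 12.6 CPM in Dll1+ libraries (log2 fold change -1.97, adjusted p = 0.0362). Stc2, an estrogen-induced secreted glycoprotein gene, changed by -1.93 on the log2 scale (adjusted p = 0.0303), and Myb, a transcription factor gene induced by estrogen, changed by -0.87 (adjusted p = 0.0264). Nrip1, a corepressor of the estrogen receptor that estrogen itself induces, exceeded its Dll1- level in 4 of 4 mice (log2 fold change 0.43, adjusted p = 0.0154). Ccnd1 and Xbp1, also estrogen-responsive, gave -0.09 and 0.03 without passing. Areg, Stc2, Ccnd1 and Xbp1 were named after their values were seen.

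The prolactin and STAT5 branch was described from a list of 13 genes, which holds Jak2, Stat5b and Ghr beside genes downstream of Prlr and Stat5a. Of these 3 were higher and none lower in the combined edgeR test (5 had an unadjusted p under 0.05, and DESeq2 called 4 higher and 1, Wap, lower), with a list median of -0.05 on the log2 scale. Within PyMT-Dll1GFP mice edgeR called 2 higher and 2 lower, and within PyMT-Dll1mCh mice 1 higher and 1 lower. Csn3, the kappa-casein gene, was at 6427, 6424, 4464 and 6717 CPM in Dll1- and 12052, 12957, 8503 and 9741 CPM in Dll1+ libraries (log2 fold change 0.85, SE 0.12, adjusted p = 0.0119). Every Dll1+ library was above every Dll1- library for this milk protein gene. Ghr, the growth hormone receptor gene, and Socs2, a feedback inhibitor of cytokine signaling, were higher by 0.44 and 0.33 on the log2 scale (adjusted p = 0.0465 and 0.0491). Jak2, the kinase bound to the prolactin receptor, gave -0.12 (adjusted p = 0.339), and Cish, a STAT5 target, -0.06 (adjusted p = 0.549); both were named after their values were seen.

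Receptor cofactors and other luminal factors had more calls upward than downward. Of 17 genes 5 were higher and none lower in the combined test by edgeR and by DESeq2 (6 had an unadjusted p under 0.05), and the list median was 0.14. Most of the edgeR calls by reporter came from PyMT-Dll1mCh mice, with 6 higher and 1 lower, against 1 higher and none lower in PyMT-Dll1GFP mice. Runx1, a partner of the estrogen receptor on chromatin, rose from 85.8 ± 20.8 to 134 ± 22.7 CPM (SD, n = 4 libraries each, adjusted p = 0.0109 in edgeR). Cited2, a paralog of Cited1 that moved in the opposite direction, rose by 0.48 on the log2 scale (adjusted p = 0.0296), and Ncoa1, a steroid receptor coactivator gene, by 0.30 (adjusted p = 0.0196).

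**Figure D3:**
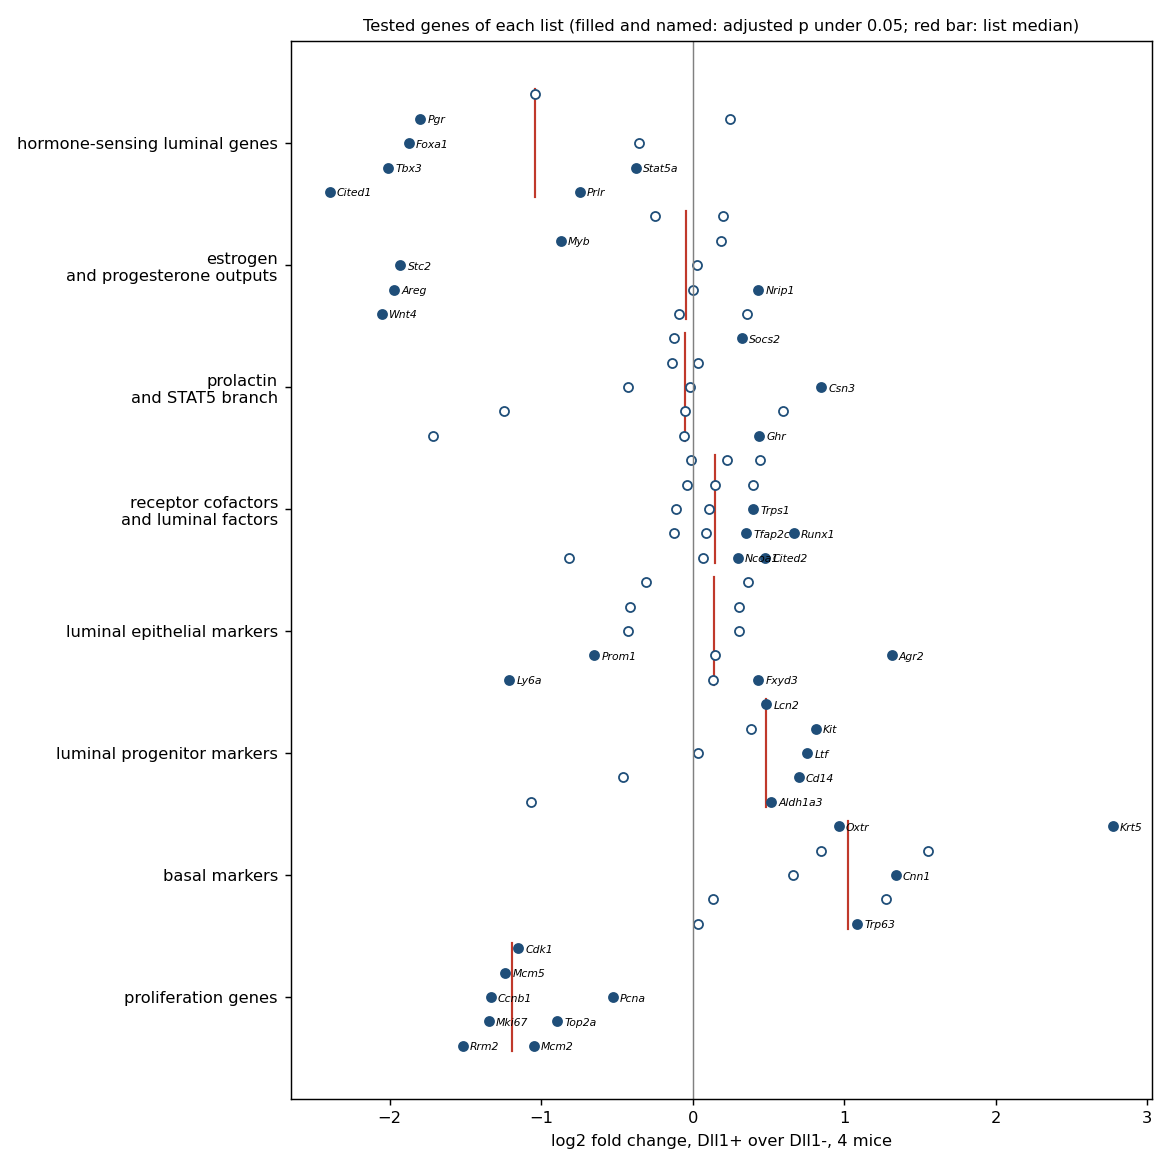
Log2 fold change of Dll1+ over Dll1- cells across 4 mice for the tested genes of each list, 1 point per gene; filled and named points had an adjusted p under 0.05, and the red bar is the list median. The medians of the hormone-sensing genes (-1.04) and the proliferation genes (-1.20) lie left of 0, and those of the luminal progenitor (0.49) and basal markers (1.02) lie right of it. The lists of non-epithelial markers, which are not drawn, also had medians below 0 (-1.28 for fibroblast, -0.68 for endothelial and -0.58 for immune markers). By reporter these medians were, in the same order, -0.12, 0.16 and 0.13 in PyMT-Dll1GFP mice and -2.32, -1.36 and -1.14 in PyMT-Dll1mCh mice.

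Other cell identity markers moved with the same sort, and their part in the changes of the 9 genes was not tested. General luminal markers were split in the combined test, 2 of 12 being higher and 2 lower in edgeR, and 5 higher, Krt8 and Krt18 included, and 4 lower in DESeq2 (list median 0.14). They were also split by reporter in edgeR, 1 higher and 2 lower in PyMT-Dll1GFP mice and 1 higher and 1 lower in PyMT-Dll1mCh mice. Prom1, whose surface protein marks hormone-sensing luminal cells, fell in 4 of 4 mice from 97.3 ± 6.92 to 62.0 ± 4.33 CPM (SD, n = 4 libraries each, adjusted p = 0.00534 in edgeR). Ly6a, which encodes the luminal surface antigen Sca1 and was named after its values were seen, fell as well (log2 fold change -1.21, adjusted p = 0.0495). Agr2, a gene of secretory luminal cells, and Fxyd3, an epithelial ion transport regulator, rose by 1.31 and 0.43 on the log2 scale. The keratins Krt8 and Krt18, shared by all luminal cells and named after their values were seen, gave 0.31 and 0.36 without passing in edgeR (adjusted p = 0.0638 and 0.0643).

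Luminal progenitor markers in the combined test were higher for 5 of 9 genes and lower for none in edgeR, where 8 had an unadjusted p under 0.05, and DESeq2 called 6 higher and 1, Cyp24a1, lower. PyMT-Dll1GFP mice alone were split in edgeR, with 2 of these markers higher and 2 lower, while PyMT-Dll1mCh mice had 4 higher and none lower. Kit, the stem cell factor receptor of luminal progenitors, rose from 189.8 ± 90.7 to 328 ± 148 CPM (SD, n = 4 libraries each, adjusted p = 0.00585 in edgeR), with Cd14 and Ltf up by 0.70 and 0.75 on the log2 scale. Basal markers in the combined test were higher for 4 of 10 genes, led by the keratin gene Krt5 (log2 fold change 2.77, adjusted p = 0.00730). The contractile gene Cnn1 gave 1.34 and the oxytocin receptor gene Oxtr 0.96 on the log2 scale. Cnn1 was at 0.555 to 2.23 CPM in the PyMT-Dll1GFP libraries and 6.14 to 59.2 CPM in the PyMT-Dll1mCh libraries. DESeq2 did not call the list's other contractile genes, Acta2, Myh11 and Mylk, in the combined test. Only 1 of the 10 was called higher by edgeR in PyMT-Dll1GFP mice, against 5 in PyMT-Dll1mCh mice, and none was lower in either. All 8 proliferation genes were lower, with Rrm2, Ccnb1 and Mcm2 at -1.52, -1.34 and -1.05. Their summed level fell from 608 to 633 to 268 to 274 CPM in PyMT-Dll1GFP mice and from 798 to 980.4 to 448 to 486 CPM in PyMT-Dll1mCh mice.

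Markers of non-epithelial cells moved with the sort in PyMT-Dll1mCh mice. In the combined edgeR test none of 9 fibroblast, 7 endothelial, 9 tested immune and 2 tested adipocyte markers passed. DESeq2 called 1 of them, Fbln1. An unadjusted p under 0.05 was reached by Fbln1, Fcer1g and Adgre1, at 0.0266, 0.0352 and 0.0497 in edgeR. In PyMT-Dll1mCh mice 5 fibroblast, 2 endothelial, 8 immune and 2 adipocyte markers were lower in Dll1+ cells, and in PyMT-Dll1GFP mice edgeR called none of them, with 2 at an unadjusted p under 0.05 and 1, Cd68, called higher by DESeq2. Endothelial markers summed to 151 to 339 CPM in the PyMT-Dll1mCh Dll1- libraries, 82.8 to 86.7 CPM in their Dll1+ libraries and 41.2 to 47.9 CPM in the 4 PyMT-Dll1GFP libraries. Immune markers summed to 245 to 254, 113 to 117 and 42.0 to 58.4 CPM in the same order. Adipocyte markers summed to at most 84.6 CPM. In PyMT-Dll1mCh mice the sums were 34.1 to 84.6 CPM in Dll1- and 14.5 to 20.5 CPM in Dll1+ libraries. In PyMT-Dll1GFP mice they were 6.86 to 7.69 CPM in Dll1- and 8.97 to 9.73 CPM in Dll1+ libraries. Adipoq was at 0 counts in all Dll1+ libraries, but its Dll1- libraries of mice 1 and 2 held only 1 count each.

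**Figure D4:**
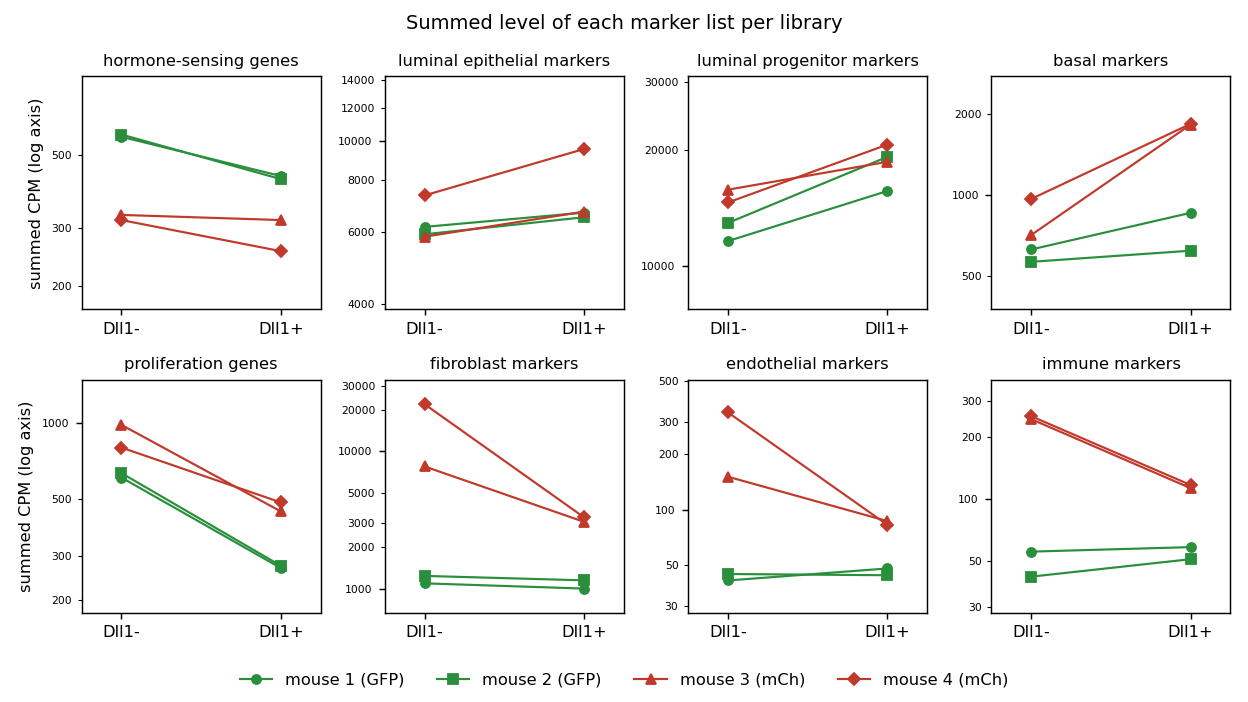
Summed level of each list in CPM on a log axis; each line joins the Dll1- and Dll1+ library of 1 mouse, green for PyMT-Dll1GFP and red for PyMT-Dll1mCh. The hormone-sensing genes and the proliferation genes run down in all 4 mice, the luminal progenitor and basal markers run up, and the fibroblast, endothelial and immune markers run down in the PyMT-Dll1mCh mice. The sum of the hormone-sensing genes changed little in mouse 3, from 328 to 317 CPM. It went from 567 to 431, 576 to 422 and 317 to 255 CPM in mice 1, 2 and 4.

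Over the 8 libraries, the genes whose log2 levels were most like those of a member were found among 14909 genes whose mean reached 1 CPM. They are given as a description, since the libraries share mice, reporters and sorted populations and so many genes have high coefficients. Pgr was most like Slc5a5 (Pearson r = 0.986) and Fxyd2 (r = 0.984), and Foxa1 was most like Tnfrsf19 (r = 0.976) and Aspm (r = 0.975). For Prlr the nearest were Cdnf and Dip2a, and for Stat5a Ankib1 and Jarid2. Cited1 was most like Mapkap1 and Qrsl1, Tbx3 was most like Got1 and R3hdml, and Gata3 was most like 4632404H12Rik and Bche. Esr1 had Kansl2-ps and Akna and Greb1 had Entpd1 and Megf6 as nearest, the latter with the lowest coefficients (0.946 and 0.927). None of these 18 genes was among the nearest when the within-mouse differences of the 4 mice were used in place of levels.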

How the data were processed

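RNA of sorted lineage-negative tumor cells was sequenced from 8 libraries with a stranded TruSeq kit. The authors mapped the reads with salmon (version not given in the sources used here) to GENCODE M20 transcripts (GRCm38.p6), brought them to gene level with tximport and deposited the estimated counts, which were already whole numbers and were not normalized. It is not stated whether mapping used the strand. Of 53697 gene identifiers, 53668 matched the GENCODE M21 annotation used here for symbols and positions. Genes were tested with edgeR 4.0.16 (R 4.3.3) after TMM normalization and filterByExpr on Dll1+ and Dll1- groups, by a robust quasi-likelihood F test with Benjamini-Hochberg adjustment over 18322 genes and a threshold of 0.05. The model held the mouse and Dll1 status, or the mouse and a Dll1 effect per reporter. Comparisons between reporters used 1 mean per reporter and Dll1 status, without the mouse. Libraries were paired by the mouse that the labels give, since both came from the same animal. After removal of group means, paired libraries correlated at r = -0.05 in the PyMT-Dll1GFP and 0.55 in the PyMT-Dll1mCh mice over all tested genes.

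The SE of a fold change was its size divided by the root of F. Alternatives used DESeq2 1.42.0, limma 3.58.1, other normalization and filters, no mouse term, and each mouse left out. The tests were tried on simulated counts. For the reporter comparisons these held no differences between mice, so they could not show the effect of the missing mouse term. Total counts per library were 27301396 to 123907626, and 3 counts, the detection floor, were exceeded by every member in every library. The part of depth in the precision of the low genes was not tested. In the main tests of Dll1+ against Dll1- cells, P values rest on the spread of the within-mouse difference, pooled over both reporters. Those between reporters rest on the spread among libraries of a group and count both libraries of a mouse as separate. Every edgeR test also draws on the spread across genes. The 9 genes and the 11 other lists were chosen with earlier results of these data known. From the other lists the text names the 3 genes of smallest p in the combined test, and it says where other genes were named after their values were seen. Shared 31-base stretches were counted over annotated transcripts. A marker of the immune list is not reported here.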

Additional observations from a re-analysis of the deposited data

Results flagged for a closer look

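Esr1 in the Dll1- libraries was flagged because mouse 1, at 13.5 CPM, lay apart from the other 3 libraries, which were close together at 11.6, 11.3 and 11.2 CPM. The difference itself was small. Cited1 in the Dll1+ libraries stood out because mouse 3, at 5.92 CPM, was well above 1.85, 1.16 and 1.66 CPM in the other mice. Of 27 sets of 4 values tested for a distant value, 2 had one, where chance gives about 1 in 20, and each set mixes the 2 reporters.

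Igfbp4, an insulin-like growth factor binding protein gene that estrogen can induce, moved in opposite directions with the 2 reporters. It was at 28.6 and 30.5 CPM in Dll1- and 46.8 and 50.5 CPM in Dll1+ libraries of the PyMT-Dll1GFP mice, and at 176 and 439.7 against 119 and 255 CPM in the PyMT-Dll1mCh mice. The log2 fold changes were 0.72 and -0.68 (adjusted p = 0.00827 and 0.0111 in edgeR), and they differed by 1.40 (adjusted p = 0.0377). Fibroblasts also express this gene, and the fibroblast marker sums differed between the same libraries (7763 to 21993 CPM in PyMT-Dll1mCh Dll1- cells against 1097 to 1242 CPM in PyMT-Dll1GFP Dll1- cells), a relation that was not tested.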

How the results depend on the processing

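Of the 9 members, 6 were called in the combined test, and this count was 6 with RLE size factors, 4 without a filter, 6 with at least 10 counts in every library, 7 with DESeq2 and 1 to 4 with a mouse left out. Without the replicate block (reporter kept as a term) it was 6, while over all genes the calls went from 2568 to 1352. DESeq2 called 4291 genes, and leaving out a mouse gave 405 to 2400. In PyMT-Dll1GFP mice 6 members were called, 2 without the replicate block and 0 to 6 with a mouse left out, and over all genes 1673 became 274, 2 to 2355, and 3001 without a filter. In PyMT-Dll1mCh mice 5 members became 0 without the replicate block, 8 without a filter, 2 to 5 with a mouse left out and 0 with that reporter fitted alone, and over all genes 2154 became 212, 3637, 905 to 1315, and 0. For the difference between reporters, 0 members became 2 without a filter (Pgr and Foxa1), 1 with DESeq2 and 0 to 1 with a mouse left out, while 13 called genes became 1143, 525 and 0 to 717, and 44 with at least 10 counts and 0 without the block. Between reporters in Dll1- cells, 3 members became 5 with DESeq2, 5 with the mouse as a random replicate block and 0 to 6 with a mouse left out, and 6701 called genes became 0 to 7828. In Dll1+ cells 2 members became 4 with DESeq2, 3 with the random block and 0 to 4 with a mouse left out, and 5612 genes became 0 to 6897. The cause of these shifts was not tested, and where 1 mouse of a reporter remained it was assumed to vary like the others. No called member changed direction under any alternative run. RLE size factors changed no call among the members.

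Greb1 and Tbx3 had as few as 20 and 30 counts in a library, and the 95% interval of the combined log2 difference of Greb1 was -1.90 to -0.18. That of Pgr, whose lowest count was 107, was -2.77 to -0.83. The part of depth in these intervals was not tested. Each reporter has 2 mice, so calls within a reporter rest on a spread pooled over both.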

Other observations

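The milk protein genes of the prolactin branch moved in different directions, a pattern described after the values were seen. Csn2, the beta-casein gene, was at 7.78, 26.4, 40.6 and 137 CPM in Dll1- libraries and at 0.732, 1.72, 44.1 and 67.1 CPM in Dll1+ libraries. It fell in PyMT-Dll1GFP mice (log2 fold change -3.77, adjusted p = 0.0236 in edgeR) and was not called in PyMT-Dll1mCh mice (-0.45, adjusted p = 0.412), and the difference between them was not called by edgeR either (adjusted p = 0.163), although DESeq2 called it for Csn2 and Wap. Wap, the whey acidic protein gene, was lower in the Dll1+ library of each mouse, at 13.5, 8.86, 58.4 and 21.2 CPM against 48.2, 33.2, 82.2 and 37.6 CPM. Its fall was called within each reporter (adjusted p = 0.00270 and 0.0184) and not in the combined test (adjusted p = 0.0517). Csn3, described above, rose in the same cells.

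Calca, Tnfsf11 and Tff1, which belong to the estrogen and progesterone outputs, failed the filter on low counts and were not tested. Calca, the calcitonin gene, was at 6.89 CPM in the Dll1- and 1.56 CPM in the Dll1+ library of mouse 3, and at most 0.243 CPM in the other 6 libraries. Tnfsf11, the gene of the progesterone-induced ligand Rankl, was at 4.96 and 1.89 CPM in the Dll1- and Dll1+ libraries of mouse 3, at 0.826 and 0.126 CPM in mouse 4 and at most 0.0697 CPM in mice 1 and 2. Mouse 3 also had the highest Cited1 levels and the lowest Pgr level among the Dll1- libraries (21.2 and 3.48 CPM). Tff1, a classical estrogen target in human cells, had no count in 6 libraries.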
